A study of Mus musculus with 16 samples.

Results

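The 10 genes described here mark GABAergic interneurons of the hippocampus: Gad1, Gad2, Slc32a1, Pvalb, Sst, Vip, Kcnc1, Reln, Lhx6 and Htr3a. They were measured by the 20 probe sets that the array's annotation pairs with one of these 10 symbols alone, of 45101 probe sets on the array. A probe set is a group of short probes that together read 1 transcript. Of the 20, 14 were bright enough to be tested, and every one of the 10 genes kept at least 1 of them. RNA came from the hippocampus of male mice aged 2 months, labelled as strain C56/BL6, on 16 Affymetrix expression arrays. The 4 groups of 4 arrays were N-dCKO, whose genotype label gives APP-/- with APLP2-/-, then APLP2KO (APLP2-/-), APPKO (APP-/-) and WT (wild type). The series title calls the double knockout neuronal and conditional, but no source used here names the Cre driver, and so the cells that lost both genes are unknown here. The amyloid precursor protein is encoded by App, and Aplp2 encodes a related membrane protein.

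Interneurons are the inhibitory minority of hippocampal neurons. They make the transmitter GABA from glutamate, pack it into vesicles and release it onto the pyramidal and granule cells around them. Their classes are told apart by the peptides, calcium-binding proteins, channels and receptors they hold: fast-spiking basket cells carry parvalbumin, dendrite-targeting cells somatostatin, and other classes VIP, the serotonin receptor 5-HT3A or reelin.

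Across all arrays the median signal lay between 79.7 and 102 on the linear MAS5 scale. The targeted genes matched the labels: App averaged 2191 in N-dCKO, 19654 in APLP2KO, 2511 in APPKO and 18499 in WT, and Aplp2 averaged 999 in N-dCKO, 1162 in APLP2KO, 5778 in APPKO and 5984 in WT. Neurod6, a transcription factor of pyramidal neurons, averaged 5971 in N-dCKO, 5412 in APLP2KO, 5612 in APPKO and 5555 in WT. Pyramidal neuron RNA was thus read in every group, while the dissection itself was not tested. Measures other than the interneuron genes also moved with genotype. For Gapdh, the signal at the 3′ end over that at the 5′ end, which depends on RNA integrity, was 0.813 ± 0.017 in N-dCKO, 0.779 ± 0.031 in APLP2KO, 0.780 ± 0.026 in APPKO and 0.764 ± 0.015 in WT (SD, n = 4 each), with every N-dCKO array above every WT array. The mean log2 signal of 10 choroid plexus genes ran from 5.56 to 8.71 in N-dCKO, where 1 array stood apart from the others. This mean ran from 8.83 to 9.23 in APLP2KO, from 8.62 to 9.78 in APPKO and from 9.08 to 10.10 in WT. It served as a covariate in some fits below. Since it did not overlap between N-dCKO and WT, those fits cannot set it apart from the N-dCKO genotype.

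Reelin RNA was called higher in N-dCKO hippocampus, and the serotonin receptor subunit Htr3a lower in APLP2KO hippocampus. The Reln call was lost in 7 of 24 alternative ways of processing and the Htr3a call in 9 of 23. Over both groups without APLP2 against both with it, the Htr3a call was lost in 1 of 29. None of the other 8 markers passed the test against WT. The genes that make and load GABA differed from WT by at most 0.20 on the log2 scale in any knockout. In N-dCKO, 9 of the 10 markers had positive log2 differences from WT, where 48.7% of all tested genes did. The count was 7 with each array centred on its median, and 7 with the choroid plexus genes as covariate. Of the 9, 1 was called, where 0.249% of all tested genes were called higher. The markers were chosen with earlier results of these data known. Among genes of other cells, 6 of 7 for excitatory neurons, 6 of 7 for astrocytes and 3 of 4 for striatal neurons were positive. So were 2 of 5 for thalamus, 0 of 10 for microglia, 0 of 7 for oligodendrocytes and 0 of 10 for choroid plexus. In whole tissue, fewer cells of a type and less RNA per cell cannot be told apart.

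**Figure D1:**
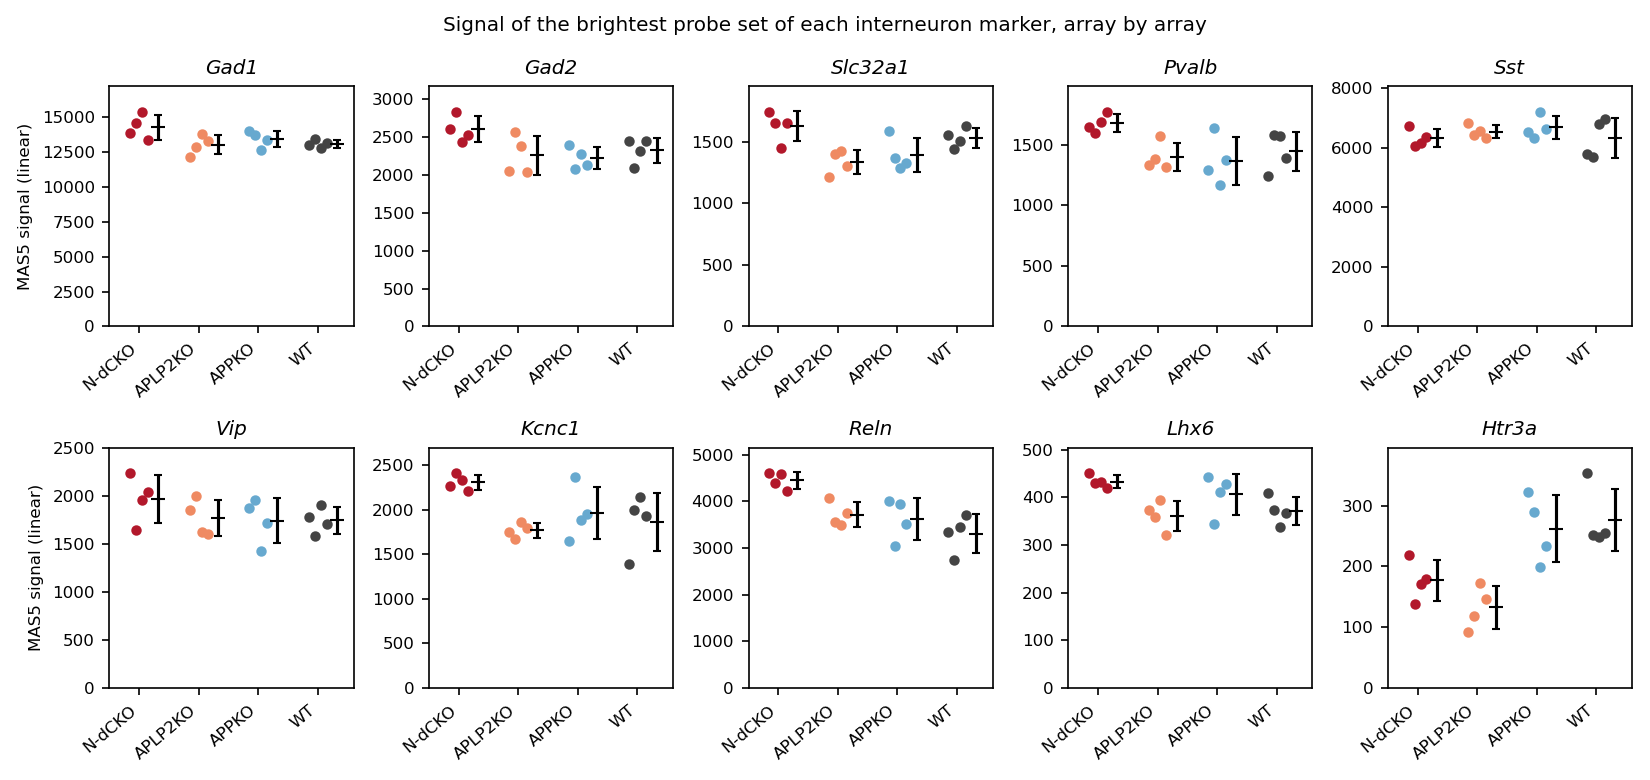
MAS5 signal (linear, from 0) of the brightest probe set of each of the 10 markers, by genotype from N-dCKO on the left to WT on the right. Each point is 1 array and the bar is mean ± SD of 4 arrays. The N-dCKO points of Pvalb, Kcnc1, Reln and Lhx6 all lie above the WT points, and the N-dCKO and APLP2KO points of Htr3a all lie below the WT points.

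Reln encodes reelin, a large secreted glycoprotein that guides migrating neurons in development and in the adult hippocampus is made by several interneuron classes and by surviving Cajal-Retzius cells. Its bright probe set (1449465_at) read 4600, 4390, 4578 and 4222 on N-dCKO arrays 1 to 4, 4079, 3558, 3484 and 3741 in APLP2KO, 4006, 3032, 3931 and 3506 in APPKO, and 3346, 2731, 3444 and 3706 in WT. All 4 N-dCKO arrays were above all 12 of the others, and the 3 other groups overlapped each other. The log2 difference of N-dCKO from WT was 0.43 ± 0.09 (SE, 95% interval 0.25 to 0.62, limma adjusted p = 0.0206), a 1.35-fold higher signal. APLP2KO differed from WT by 0.17 (adjusted p = 0.715) and APPKO by 0.13 (adjusted p = 0.9997). The call was lost without N-dCKO array 1 (limma adjusted p = 0.0746), without N-dCKO array 2 (0.0502) and without WT array 2 (0.0887), and with each array centred on its median (0.35, 0.0749). It was also lost without the variance trend (adjusted p = 0.0626). As a covariate, the Gapdh ratio (0.37 ± 0.12, adjusted p = 0.298) or the mean of the choroid plexus genes (0.33 ± 0.16, adjusted p = 0.724) ended it too. Neither covariate overlapped between the N-dCKO and WT arrays, so these fits have wider SEs and cannot set the covariate apart from genotype.

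A second Reln probe set (1458020_at) was below the filter, with signals from 10.4 to 45.3 over the 16 arrays. It read 32.1, 30.3, 24.3 and 45.3 in APPKO against 13.5, 21.9, 23.9 and 12.4 in WT, without overlap (exact permutation p = 0.0286), while its N-dCKO and WT arrays overlapped (exact permutation p = 0.286). The other 3 genes listed for Cajal-Retzius cells were also below the filter. Over the 16 arrays Trp73, a p53 relative that marks these cells, ran from 29.7 to 97.5, Lhx1 from 4.78 to 40.5 and Lhx5 from 4.94 to 51.6. The part of Cajal-Retzius cells in the reelin signal was not tested.

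The promoter of Reln is shown beside that of Sst because, among the 10 markers, these had the largest positive and the smallest difference between N-dCKO and WT. Each is the 250 bases before the annotated start, 5′ to 3′ on the gene's strand, from RefSeq on build GRCm38.p6. The Reln stretch is chr5:22344706-22344955 on the minus strand and the Sst stretch chr16:23890845-23891094 on the minus strand. Capitals mark matches to GGGCGG or CACGTG in Reln and to TGACGTCA in Sst, searched on both strands.
Reln promoter: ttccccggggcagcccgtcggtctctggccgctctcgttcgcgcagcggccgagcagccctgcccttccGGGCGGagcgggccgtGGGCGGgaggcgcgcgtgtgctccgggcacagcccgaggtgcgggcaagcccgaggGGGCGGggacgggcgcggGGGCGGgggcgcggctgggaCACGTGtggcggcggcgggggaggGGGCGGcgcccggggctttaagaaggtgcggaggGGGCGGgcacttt
Sst promoter: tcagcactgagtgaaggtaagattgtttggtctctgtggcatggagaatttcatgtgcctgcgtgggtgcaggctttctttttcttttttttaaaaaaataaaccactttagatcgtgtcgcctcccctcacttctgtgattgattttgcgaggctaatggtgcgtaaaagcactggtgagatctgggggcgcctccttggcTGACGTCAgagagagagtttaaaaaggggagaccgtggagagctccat
The Reln stretch was 80% G and C, against a median of 52.4% over 32851 promoters of that length. It held 6 matches to GGGCGG, the core of the GC box, which 32.7% of those promoters hold at least once, and 1 match to CACGTG, an E-box, which 6.02% hold. The Sst stretch was 47.2% G and C and held TGACGTCA, the full cAMP response element, beginning 48 bases before the start, which 1.55% of promoters hold. The shorter letters TGACG lie inside it and occurred in 17.8% of promoters. The table had 12 entries for 9 of the 10 markers. These matches describe the letters alone, since no binding was measured.

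Gad1 and Gad2 encode the paired enzymes GAD67 and GAD65 that make GABA, and Slc32a1 the transporter that loads it into vesicles. Gad1 read 13836, 14568, 15360.5 and 13308 in N-dCKO, 12145, 12833, 13759 and 13265 in APLP2KO, 13974, 13680, 12652 and 13306 in APPKO, and 12954, 13401, 12746 and 13095 in WT. N-dCKO had the 2 highest arrays, and all groups overlapped. The log2 difference of N-dCKO from WT was 0.13 ± 0.05 (limma adjusted p = 0.319), and a second Gad1 probe set gave 0.09 ± 0.06.

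Gad2 read 2613, 2835, 2430.5 and 2533 in N-dCKO, 2059, 2565, 2381 and 2036 in APLP2KO, 2400, 2082, 2277 and 2127 in APPKO, and 2444, 2098, 2321 and 2451 in WT. All N-dCKO arrays lay above all APPKO arrays, and N-dCKO overlapped APLP2KO and WT. The log2 difference was 0.16 ± 0.08 in N-dCKO against WT (limma adjusted p = 0.417) and 0.23 ± 0.08 in N-dCKO against APPKO (adjusted p = 0.376). A dimmer Gad2 probe set gave 0.08 ± 0.14 in N-dCKO against WT.

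Slc32a1 had its lowest group mean in APLP2KO. It read 1745, 1656, 1453 and 1657 in N-dCKO, 1218, 1403, 1427 and 1302 in APLP2KO, 1592, 1367, 1285 and 1332 in APPKO, and 1558, 1438, 1504 and 1626 in WT. Every APLP2KO array was below every WT array and every N-dCKO array, while N-dCKO and WT overlapped. The log2 differences from WT were 0.09 ± 0.08 in N-dCKO, -0.20 ± 0.08 in APLP2KO and -0.14 ± 0.08 in APPKO, none of which passed (limma adjusted p = 0.716, 0.535 and 0.996). With the choroid plexus genes as covariate Slc32a1 turned to -0.17 ± 0.12 in N-dCKO against WT, and N-dCKO against APPKO was at -0.01 ± 0.11, where it was 0.22 ± 0.08 without the covariate. The interaction, which asks whether the N-dCKO to APPKO difference departs from the APLP2KO to WT difference, was 0.42 ± 0.11 for Slc32a1. Its unadjusted p was 0.000875 and its limma adjusted p 0.9997 over 11665 genes, and with that covariate it was 0.23 ± 0.12. The other 3 Slc32a1 probe sets were near the floor, with group means between 2.10 and 14.0.

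Pvalb, Kcnc1 and Lhx6 belong to interneurons born in the medial ganglionic eminence: parvalbumin is the calcium buffer of fast-spiking cells, Kcnc1 encodes Kv3.1, the potassium channel that lets them fire fast, and Lhx6 is a transcription factor of that lineage. Pvalb read 1647, 1599, 1689 and 1771 in N-dCKO, 1330.5, 1383, 1567 and 1313 in APLP2KO, 1290.5, 1637, 1170 and 1370 in APPKO, and 1242, 1579, 1575 and 1386 in WT. N-dCKO lay above WT and APLP2KO with no overlap, and 1 APPKO array reached into the N-dCKO range. The log2 difference from WT was 0.22 ± 0.09 in N-dCKO (limma adjusted p = 0.345), -0.04 in APLP2KO and -0.08 in APPKO.

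Kcnc1 on its brightest probe set (1443855_at) read 2267, 2410, 2340 and 2211 in N-dCKO, 1752, 1669, 1860 and 1792 in APLP2KO, 1655, 2364, 1890 and 1950 in APPKO, and 1395, 1992, 2142 and 1925 in WT. N-dCKO again lay above APLP2KO and WT with no overlap, and APPKO array 2 lay inside the N-dCKO range. The log2 difference of N-dCKO was 0.32 ± 0.11 from WT (limma adjusted p = 0.185) and 0.38 ± 0.11 from APLP2KO (adjusted p = 0.266). With only those 8 arrays in the fit, the difference from APLP2KO passed (adjusted p = 0.0320). The Kcnc1 probe sets disagreed: 1423559_at gave 0.28 ± 0.14 and 1456944_at 0.05 ± 0.12 in N-dCKO against WT, and the remaining one was below the filter. In N-dCKO against APLP2KO, 1423559_at gave 0.14 ± 0.14 and 1456944_at 0.18 ± 0.12, neither of them called.

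Lhx6 read 451, 431, 431 and 419 in N-dCKO, 373, 359, 395 and 320 in APLP2KO, 442, 344, 412 and 427 in APPKO, and 409, 373, 338 and 368 in WT. The N-dCKO arrays were above all WT and APLP2KO arrays, though the nearest WT array was close. The log2 difference of N-dCKO from WT was 0.22 ± 0.10 (limma adjusted p = 0.369). Its second probe set was below the filter.

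Sst, the peptide of dendrite-targeting interneurons, was the flattest marker in N-dCKO. It read 6718, 6050, 6165 and 6364 in N-dCKO, 6834, 6415, 6568 and 6326 in APLP2KO, 6543, 6343, 7210 and 6635 in APPKO, and 5790, 5702, 6812 and 6979 in WT. All groups overlapped, and the WT arrays were the most spread. The log2 difference from WT was 0.01 (95% interval -0.13 to 0.14) in N-dCKO, 0.05 (-0.08 to 0.19) in APLP2KO and 0.08 (-0.05 to 0.22) in APPKO.

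Vip, the peptide of interneurons that mostly inhibit other interneurons, read 2241, 1647, 1957 and 2045 in N-dCKO, 1856, 2007, 1631 and 1610 in APLP2KO, 1877, 1962, 1425 and 1718 in APPKO, and 1789, 1584, 1915 and 1710 in WT. The 4 groups overlapped throughout. Its log2 difference from WT was 0.17 ± 0.10 in N-dCKO (limma adjusted p = 0.555), 0.02 in APLP2KO and -0.01 in APPKO.

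Htr3a encodes a subunit of the 5-HT3 receptor, a serotonin-gated cation channel of interneurons born in the caudal ganglionic eminence. Its single probe set (1418268_at) read 219, 137, 172 and 180 in N-dCKO, 92.1, 119, 172 and 147 in APLP2KO, 323, 290, 200 and 234 in APPKO, and 353, 251, 248 and 255 in WT. Both groups without APLP2 lay below WT with no overlap, and APPKO overlapped WT. Htr3a fell by 1.03 ± 0.19 on the log2 scale in APLP2KO against WT (95% interval -1.43 to -0.64, limma adjusted p = 0.0252), so that WT was 2.05-fold higher. N-dCKO differed from WT by -0.62 ± 0.19 (adjusted p = 0.129) and APPKO by -0.09 (adjusted p = 0.9997). Over both groups without APLP2 against both groups with it, 8 arrays against 8, Htr3a fell by 0.78 ± 0.13 (limma adjusted p = 0.00464). The 2 sides of that comparison overlapped, as N-dCKO array 1 (219) lay above APPKO array 3 (200). The probe set was dim, with APLP2KO array 1 (92.1) close to the signal of 88.2 at the filter. Whether the loss differed with and without APP was tested by the interaction, 0.50 ± 0.27 (unadjusted p = 0.0775, limma adjusted p = 0.9997).

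The APLP2KO call of Htr3a was lost in 6 of the 8 fits that left out 1 array: limma adjusted p was 0.102 without APLP2KO array 1, 0.0719 without APLP2KO array 2, and 0.126, 0.0729, 0.0674 and 0.0629 without WT arrays 1, 2, 3 and 4. The call over 8 against 8 arrays held without any 1 array, with adjusted p between 0.00253 and 0.0149, and was lost when the choroid plexus genes entered as a covariate (-0.88, adjusted p = 0.0878).

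Htr3a lies on chromosome 9, which also carries Aplp2, and some tested genes next to it differed in the same comparison. On one side, Zbtb16, a zinc finger repressor, rose by 0.36 ± 0.08 over both groups without APLP2 (limma adjusted p = 0.0274), Nnmt, which methylates nicotinamide, fell by 0.72 ± 0.16 (adjusted p = 0.0269), and Gm5617 rose by 0.76 ± 0.15 (adjusted p = 0.0148). Leaving out 1 array ended the call in 9 of 16 fits for Zbtb16 (adjusted p up to 0.068), in 6 of 16 for Nnmt (up to 0.0585) and in 0 of 16 for Gm5617. With the choroid plexus genes as covariate all of these calls were lost, at adjusted p of 0.299 for Zbtb16, 0.190 for Nnmt and 0.515 for Gm5617. With the Gapdh ratio as covariate those of Zbtb16 (0.234) and Nnmt (0.123) were lost, and over the mean of its probe sets Zbtb16 was at 0.21 (adjusted p = 0.423). On the other side, the deubiquitinase gene Usp28 (0.01), Zw10 (0.05) of the mitotic checkpoint and the adhesion gene Ncam1 (0.07) did not pass. Of 673 tested genes on chromosome 9, 35 were called in that comparison, against 107 of 11665 genes on all chromosomes. In APLP2KO against WT, 9 of the 673 were called, against 15 of the 11665. The part of the chromosome shared with the targeted gene in these differences was not tested. Of the 6 tested genes nearest Reln on chromosome 5, 0 were called in N-dCKO against WT by limma, and 0 had an unadjusted p below 0.05.

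**Figure D2:**
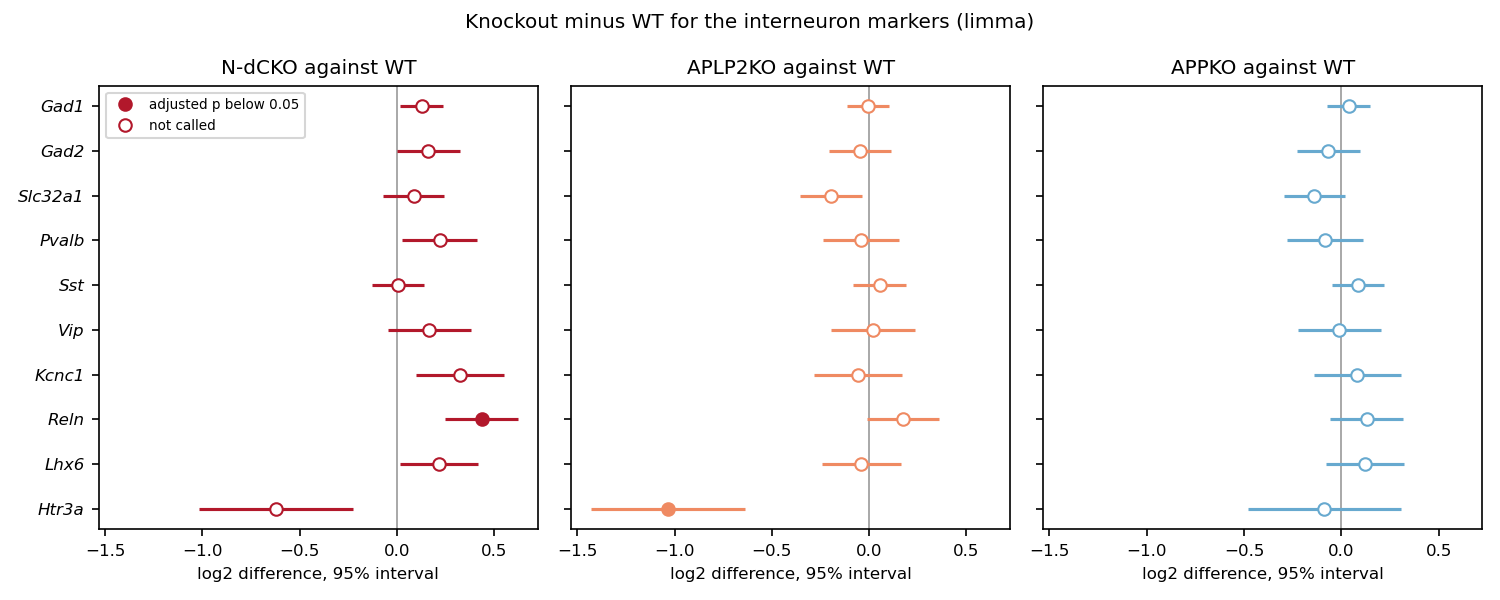
Log2 difference from WT of each marker (x axis, with its 95% interval) in N-dCKO, APLP2KO and APPKO, from 1 limma fit over 16 arrays. Filled points passed at an adjusted p below 0.05: Reln at 0.43 in N-dCKO and Htr3a at -1.03 in APLP2KO. The other intervals that exclude 0 belong to differences that did not pass over all genes.

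In N-dCKO against WT, 1 of the 10 markers was called, where 0.943% of all tested genes were, 0.249% of them as higher. The median log2 difference of the markers was 0.16, against -0.00 over all genes, of which 48.7% were above 0. In all, 6 markers had an unadjusted p below 0.05, namely Gad1, Pvalb, Kcnc1, Reln and Lhx6 higher and Htr3a lower, where 5.11% of all genes were higher and 6.87% lower at that level. The arrays of N-dCKO and WT did not overlap for Pvalb, Kcnc1, Reln and Lhx6, all higher, and for Htr3a, lower, where 2.9% of all genes were higher and 4.46% lower without overlap. Each of these 5 had an exact two-sided permutation p of 0.0286, the smallest that 4 against 4 arrays allow. With each array centred on its median, Slc32a1 and Sst turned negative and the median of the markers was 0.08, against -0.09 over all genes.

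In APLP2KO against WT, Htr3a was the 1 marker called, where 0.129% of all genes were. The median of the markers was -0.04, against -0.01 over all genes. Slc32a1 and Htr3a lay below WT with no overlap (exact permutation p = 0.0286 each), where 2.69% of all genes did so. These were also the 2 markers with an unadjusted p below 0.05, where 7.43% of all genes had one. In APPKO against WT, limma called 0 of the 10 markers and 0 had an unadjusted p below 0.05, where 0.00857% of all genes were called and 5.18% had such a p. The median of the markers was 0.01 and the largest difference that of Slc32a1. Same-numbered arrays of these groups varied together, and with the replicate number as a block in a fit of these groups limma again called 0 of 10 markers, with Reln alone at an unadjusted p below 0.05 (0.0469), and 6 of all genes in place of 1. These comparisons share the WT arrays.

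Against the single knockouts, N-dCKO again had most markers higher, without a call. Against APLP2KO the median of the markers was 0.26, against 0.00 over all genes. Limma called 0 of 10, where 0.0257% of all genes were called, and 8 of 10 were higher at an unadjusted p below 0.05, where 4.13% of all genes were. Slc32a1, Pvalb, Kcnc1, Reln and Lhx6 were higher with no overlap, where 2.25% of all genes were. Against APPKO the median was 0.20 and limma called 0 of 10, where 0.351% of all genes were called. At an unadjusted p below 0.05, 5 were higher and 1, Htr3a, was lower (-0.54), where 7.71% of all genes moved either way. Gad2 and Reln were higher than in APPKO with no overlap, where 1.95% of all genes were.

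Taking each loss over 8 against 8 arrays, the loss of APLP2 called Htr3a alone, where 0.917% of all genes were called, and 2 markers, Htr3a and Reln, had an unadjusted p below 0.05, where 10.5% of all genes did. Reln was at 0.24 ± 0.06 in that comparison (limma adjusted p = 0.0857). The loss of APP called 0 of 10, where 0.0171% of all genes were called. All 10 markers had positive differences there, with a median of 0.09 against 0.00 over all genes, and 4 had an unadjusted p below 0.05, where 9.16% of all genes did. They were Gad1 (0.09), Kcnc1 (0.23), Reln (0.20) and Lhx6 (0.19). The interaction called 0 of 10 and 0% of all genes, with 3 markers at an unadjusted p below 0.05: Gad2 (0.27), Slc32a1 (0.42) and Pvalb (0.35), where 4.15% of all genes reached it.

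**Figure D3:**
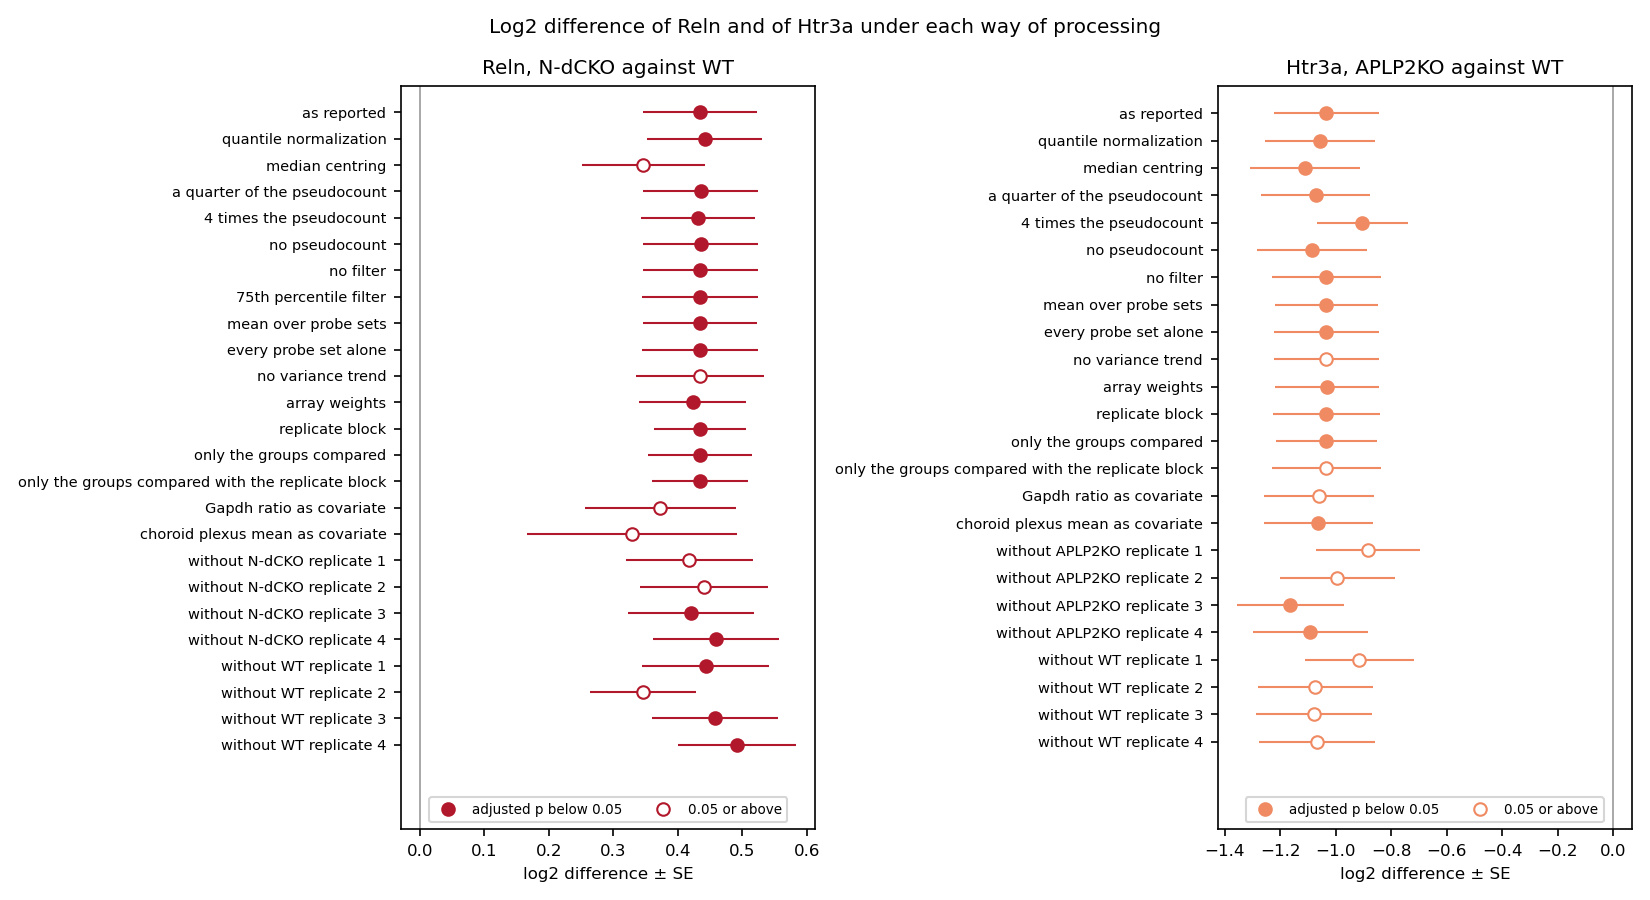
Log2 difference ± SE (x axis) of Reln in N-dCKO against WT and of Htr3a in APLP2KO against WT under each way of processing (rows). Filled points passed at a limma adjusted p below 0.05. All values of Reln lie between 0.33 and 0.49 and all values of Htr3a between -1.16 and -0.88, and open points show where the call was lost.

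Other genes of interneurons, taken from 4 lists, were mostly above 0 in N-dCKO against WT, with 1 call. Of all tested genes, 48.7% were above 0 there, 0.943% were called and 12% had an unadjusted p below 0.05. Of 11 tested genes for peptides, calcium-binding proteins and enzymes, 9 were above 0 in N-dCKO against WT, with a median of 0.04, and 1 was called. It was Crh, the stress peptide that some hippocampal interneurons make, which averaged 650 ± 130 in N-dCKO, 462 ± 48 in APLP2KO, 436 ± 72 in APPKO and 406 ± 105 in WT (SD, n = 4 each). Crh rose by 0.68 ± 0.16 on the log2 scale in N-dCKO (limma adjusted p = 0.0424), although the arrays of N-dCKO and WT overlapped. The call was lost in 6 of the 8 fits that left out 1 array, N-dCKO arrays 1, 3 and 4 and WT arrays 2, 3 and 4, with adjusted p up to 0.166 without N-dCKO array 1. With the choroid plexus genes as covariate the difference was 0.42 (adjusted p = 0.818). Cort, the somatostatin relative cortistatin, had a log2 difference of 0.57 (adjusted p = 0.182).

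All 8 tested transcription factors of the interneuron lineage were above 0 in N-dCKO against WT, with a median of 0.17 and 0 called by limma. An unadjusted p below 0.05, which 12% of all tested genes had, was reached by 1 of the 8. That was Dlx2, a homeobox factor of the ganglionic eminences, at 0.39 (limma adjusted p = 0.281). The next by p-value was Satb1, a chromatin organiser, at 0.15 (adjusted p = 0.421). All 4 tested genes of GABA uptake, breakdown and precursor supply were above 0, with a median of 0.15 and 0 called, and 1 at an unadjusted p below 0.05. Slc38a1, a glutamine transporter, was at 0.17 (adjusted p = 0.0982) and Aldh5a1, the enzyme that ends GABA breakdown, at 0.14 (adjusted p = 0.460). All 13 tested membrane and matrix genes were above 0, with a median of 0.17 and 0 called, and 4 at an unadjusted p below 0.05. Cntnap4, a neurexin relative at interneuron synapses, was at 0.36 (adjusted p = 0.0736), and passed without WT array 1 (0.45, adjusted p = 0.0243) and with array weights (adjusted p = 0.0376). Kit, a receptor tyrosine kinase, was at 0.17 (adjusted p = 0.300).

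In APLP2KO against WT these lists had 0 genes called by limma, with medians of 0.10, 0.12, 0.09 and 0.05 in the order given. They had 0 genes at an unadjusted p below 0.05, where 7.43% of all genes had one. In APPKO against WT they also had 0 called, with medians of 0.00, 0.05, 0.05 and 0.08. There 1 of the GABA handling genes and 3 of the membrane and matrix genes had an unadjusted p below 0.05, where 5.18% of all genes did. Some genes of these lists were not analysed here. Dlx6, Sp8, Nkx2-1, Erbb4 and Chrna2 were below the filter.

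**Figure D4:**
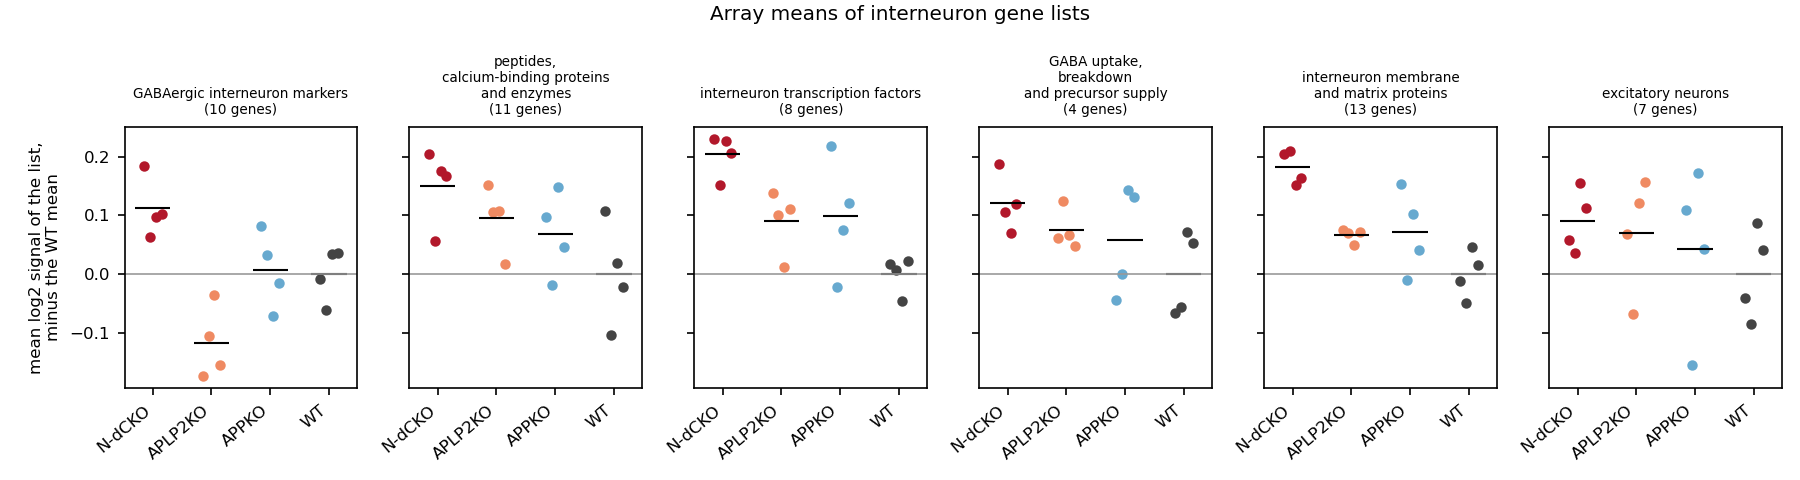
Mean log2 signal of each gene list on each array minus the WT mean of that list (y axis), for the 10 markers, the 4 other interneuron lists and excitatory neurons, by genotype with WT on the right. Points are arrays and lines group means. The N-dCKO arrays of the markers run from 10.92 to 11.04 before the WT mean of 10.86 is taken off, and the lower APLP2KO points of the markers include the fall of Htr3a.

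As a whole, the array means of the 10 markers ran from 10.92 to 11.04 in N-dCKO, 10.69 to 10.82 in APLP2KO, 10.79 to 10.94 in APPKO and 10.80 to 10.90 in WT. N-dCKO lay above APLP2KO and WT and overlapped APPKO. Excitatory neuron genes had a median log2 difference of 0.11 in N-dCKO against WT, with 6 of 7 above 0, where 48.7% of all genes were. Of these 7, 0 were called by limma and none had an unadjusted p below 0.05. Their array means ran from 11.68 to 11.80 in N-dCKO and from 11.56 to 11.73 in WT. The separation of N-dCKO from WT was not particular to the interneuron markers. Array means of 7 astrocyte genes ran from 12.07 to 12.17 in N-dCKO and from 11.95 to 12.03 in WT, also without overlap.

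Genes of other cells moved with genotype beside the interneuron genes. In N-dCKO against WT all 10 tested choroid plexus genes fell (median -2.84). Over all tested genes, 0.943% were called in that comparison, 12% had an unadjusted p below 0.05 and 48.7% were above 0. Of 10 microglial genes 4 were called lower, C1qa, C1qb, C1qc and Tyrobp. All 10 were below 0, with a median of -0.40 and 8 at an unadjusted p below 0.05. Of 7 oligodendrocyte genes 1 was called lower, Mal. All 7 were below 0, with a median of -0.52 and 6 at an unadjusted p below 0.05. Astrocyte genes had a median of 0.17 with 0 of 7 called by limma and 4 at an unadjusted p below 0.05, and thalamic genes a median of -0.07 with 0 of 5 called and none at such a p. For striatal projection neurons, which are GABAergic cells outside the hippocampus, 4 genes were tested. Ppp1r1b, which encodes the phosphatase inhibitor DARPP-32, fell by 0.66 ± 0.15 (limma adjusted p = 0.0411), and the call was lost without N-dCKO array 1, 2 or 3 or WT array 1 or 2 (adjusted p up to 0.157), and with the choroid plexus genes as covariate (-0.40, adjusted p = 0.819). The others were at 0.03 (Rgs9), 0.05 (Pde10a) and 0.33 (Drd1), without a call. In APLP2KO against WT, where Slc32a1 and Htr3a lay below WT, limma called 0 of these 4 genes. At an unadjusted p below 0.05, 3 were lower, where 4.38% of all genes were: Ppp1r1b (-0.53), Pde10a (-0.50) and Rgs9 (-0.33). The median of the 4 was -0.42. The part that any of these changes had in the interneuron values was not tested. The choroid plexus covariate in the fits given cannot be set apart from the N-dCKO genotype.

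Across the 16 arrays the 10 markers formed 45 pairs, of which 34 had a positive Pearson correlation of log2 signal, with a median of 0.26. After each group's mean was removed, 27 pairs were positive and the median was 0.07. The closest pairs were Pvalb with Kcnc1 (0.79, and 0.73 within groups) and Gad2 with Slc32a1 (0.79, and 0.70 within groups). These points share arrays and their scaling, and the values are descriptions. Among all other tested genes, the closest to Reln were Mast1 (r = 0.93) and Cacna1b (0.89), and the closest to Htr3a were Crtc1 (0.91) and Sik3 (0.87). Slc32a1 was closest to Kcnc2 (0.90), a fast potassium channel gene of the same family as Kcnc1, and to Tlk1 (0.84). Gad1 was closest to Itsn1 (0.87) and Ice1 (0.84), and Gad2 to Fstl5 (0.85) and Magee1 (0.82). Pvalb was closest to Ing1 (0.86) and Fmn1 (0.81), and Kcnc1 to Fmn1 (0.85) and Dnaja1 (0.80). Sst was closest to Syngr3 (0.88) and Mpnd (0.87), Vip to Ipcef1 (0.83) and Tshz3 (0.83), and Lhx6 to Arid3a (0.83) and Fhl2 (0.82).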

How the data were processed

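The authors deposited MAS5 intensity values, linear in scale, per the submitters' processing notes (version not given in the sources used here). Each array's 2% trimmed mean was 500, and this scaling was kept. Of 45101 probe sets, 34958 had 1 gene symbol, 932 several and 9211 none in the annotation used. Gene numbers matched 34754 of these symbols to RefSeq, and 0 symbols changed. Signals were taken as log2(signal + 9), which understates changes of dim genes. The filter kept those with a mean log2 of at least the array-wide median (6.60, signal 88.2), and the brightest per gene gave 11665 genes. One limma 3.58.1 fit (R 4.3.3) with 1 mean per group and a variance trend gave two-sided p-values, adjusted by Benjamini-Hochberg over all genes of each of 8 comparisons and called below 0.05. It had 12 residual degrees of freedom. Single probe sets were also tested by exact permutation of 4 against 4 arrays, in 60 tests. The plan's rule named all 10 markers with every probe set, list genes called against WT or in the loss comparisons, and the 2 with the smallest p of each interneuron list, and the 2 genes most correlated with each marker. Members and lists were chosen with earlier results of these data known. Choroid plexus calls are summarised.

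Nothing in the labels shows that the 4 arrays of a genotype came from different animals. The p-values therefore rest on the variation among these arrays, and some or all of it may be technical. The number of arrays limits precision: the median SE of a difference was 0.098. Replicate numbers were taken to pair 2 groups where every same-number correlation of deviations from the group means was over 0.1. This held for APPKO and WT (r from 0.19 to 0.30 over 4 pairs), from the data and not the labels, and for none of the other 5 pairs of groups (3 of 20 such correlations over 0.1). That cut does not show that the other groups were unpaired. N-dCKO and APLP2KO ran from 0.08 to 0.21, and all 16 arrays were on average closest to their own number. The main fit had no replicate block. With that block, limma called 198 genes in N-dCKO against WT in place of 110. Alternatives were other normalizations, pseudocounts, filters, probe set rules, variance models, covariates and leaving out each array. The fit was tested on simulated data. Promoter sequences are from RefSeq.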

Additional observations from a re-analysis of the deposited data

Results flagged for a closer look

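Groups of 4 arrays were searched for an array far from the others, over 56 groups of marker probe sets, where chance gives about 1 in 20, and 2 were found. Htr3a on WT array 1 read 353, while the other WT arrays read 248 to 255. Without that array Htr3a differed by -0.91 in APLP2KO against WT (limma adjusted p = 0.126). The Kcnc1 probe set 1456944_at read 685 on N-dCKO array 3, while the other N-dCKO arrays read 614 to 618. It is not the brightest Kcnc1 probe set, and its log2 difference from WT was 0.05.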

How the results depend on the processing

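No called difference reversed. Of 3284 alternative values of the named genes, 90 that were not called turned sign, 98 lost a call and 8 gained one. In N-dCKO against WT the count of markers called was 0 with median centring, without the variance trend (Reln adjusted p = 0.0626), and with the Gapdh ratio or the choroid plexus genes as covariate, and 0 to 1 without 1 array. In APLP2KO against WT it was 0 with the 75th percentile filter, which dropped Htr3a, without the variance trend (0.0573), with the Gapdh ratio (0.0513) and with only those groups and the replicate block (0.0653), and 0 to 1 without 1 array. In N-dCKO against APLP2KO it was 1 (Kcnc1) with only those groups, with and without the replicate block. For the loss of APLP2 it was 0 with the 75th percentile filter and with the choroid plexus mean, and 1 to 2 without 1 array, as Reln passed without WT array 4 (0.0489). With the replicate block it was 2 (Reln 0.0250), Cntnap4 passed in N-dCKO against WT (0.0329), and every one of the 16 arrays correlated best with its own number, a hint from the data and not the design. Median centring gave marker medians of 0.0758 in N-dCKO, -0.120 in APLP2KO and -0.0777 in APPKO against WT. The cause was not tested for any of these. Over all genes, calls in N-dCKO against WT were 110, and 5 to 198 over the alternatives (5 with the choroid plexus mean, 198 with the replicate block). In APLP2KO against WT they were 15, and 3 to 37, and in the loss of APLP2 107, and 35 to 137. Ppp1r1b lost its N-dCKO call in 12 of 23 alternatives and Crh in 13 of 23.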
